A study of Mus musculus with 70 samples.

Results

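Glutathione S-transferases (GSTs), UDP-glucuronosyltransferases (UGTs) and sulfotransferases (SULTs) are the conjugating enzymes that join glutathione, glucuronic acid or sulfate to drugs, hormones, bilirubin, bile acids and reactive products of lipid oxidation. Their genes were chosen by symbol from the table of 21859 mouse genes: every symbol of the form Gst followed by a class letter and a number, Ugt1a, Ugt2a or Ugt2b followed by a number, or Sult followed by its family number, letter and number. The rule used no measured value and found 61 genes, 21 for GSTs, 19 for UGTs and 21 for SULTs. They are described here across liver, colon and cultured fibroblasts in 70 RNA-seq libraries of 26 groups, 18 with 3 libraries and 8 with 2.

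The study asked how cells with an active senescence-driving kinase, and the cells around them, differ in transcription. Doxycycline switched on constitutively active MEK1 (caMEK1, the ERK pathway) or MKK6 (caMKK6, the p38 pathway). The mice were chimeras of cells of both colours, in which mCherry marked cells able to express the kinase and GFP the cells beside them, so GFP cells share the animal, its doxycycline and its circulation with the mCherry cells. All mice and fibroblasts were labelled C57BL/6 and male. Ages, the driver of the doxycycline switch and the number of independent fibroblast lines are not given in the sources used here, so that p-values measure the spread between these libraries.

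Mouse embryonic fibroblasts (MEFs), from embryos of day 13.5, gave 24 libraries: per kinase, 3 without doxycycline at day 2 and 3 each after 2, 4 and 7 days in 2 µg/mL. They include no untreated library of day 4 or 7 and no fibroblasts without a kinase transgene, so that in MEFs the kinase cannot be told apart from doxycycline itself, nor at days 4 and 7 from time in culture. Liver and colon gave 23 libraries each, from 16 animals per tissue. Hepatocytes came from perfused liver, were enriched by slow centrifugation and sorted. Colonic crypt cells were sorted from colon without caecum. Each tissue had untreated GFP cells of control, caMEK1 and caMKK6 mice (3 libraries each). On doxycycline, mCherry and GFP cells were taken after 7 days from the same animals: 2 control, 3 caMEK1 and 2 caMKK6 mice for liver, and 2 control, 2 caMEK1 and 3 caMKK6 mice for colon. Doxycycline in the drinking water was at 2 mg/mL for control mice and mice with caMKK6, but at 0.2 mg/mL for those with caMEK1, so that kinase and dose cannot be told apart.

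GSTs of the alpha, mu and pi classes are soluble enzymes that act on electrophiles, and many of their genes are targets of NRF2, the transcription factor of the electrophile response. UGTs sit in the endoplasmic reticulum; the Ugt1a isoforms are made from 1 locus with alternative first exons, whereas each Ugt2b gene is separate. SULTs take sulfate from PAPS and act on phenols, oestrogens, catecholamines, steroids and bile acids. In mouse liver many of these genes differ between the sexes and along the axis from portal to central vein.

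Some libraries stood apart from their labels. Ddx3y, a Y-linked gene, was below 1 FPKM (fragments per kilobase of gene, scaled to the depth of the library) in 8 of 23 liver and 7 of 23 colon libraries, against at least 2.34 and 1.79 in the others, although all were labelled male. In liver the 8 were both colours of both control mice on doxycycline, of caMEK1 animal 3 and of caMKK6 animal 1. In colon the 7 were the 4 caMEK1 libraries on doxycycline, caMKK6 mCherry libraries 2 and 3, whose GFP partners read 6.66 and 7.44, and untreated caMEK1 library 2. Both libraries of caMEK1 liver animal 3 held Cyp2b9 at 84 and 104 FPKM and Mup20 at 1.17 and 2.38, against 879 and 1224 FPKM of Mup20 in control mCherry cells. Results for caMEK1 liver are therefore also given without that animal. Ddx3y then moves fully with the mCherry comparison, at 3.2 and 4.13 FPKM in caMEK1 and 0.031 and 0.188 in control libraries. In control liver GFP cells it moved with doxycycline, at 0.0611 and 0.0633 FPKM with it and 13.7, 13.1 and 13.7 without. The part of this in the results was not tested. In caMEK1 liver mCherry cells the mCherry sequence read 12.2, 4.24 and 6.59 FPKM and the MEK1 transgene 14.1, 5.55 and 8.88, while GFP cells of the same animals held 1.33, 0 and 0.332 FPKM of mCherry and 0.133, 0.238 and 0.199 of the transgene. EGFP read 1.28, 6.81 and 5.82 FPKM in these mCherry libraries and 12.6, 35.1 and 56.4 in their GFP partners, so that within each animal all 3 sequences differed in the labelled direction. The mCherry level was nevertheless below the 4727 and 3985 FPKM of control mCherry cells and the 678 and 749.6 FPKM of control GFP cells on doxycycline, which had the higher dose. In other libraries a reporter or transgene of the other colour or kinase was read. In colon, caMKK6 GFP library 1 held 116 FPKM of the MKK6 transgene and 87.5 of mCherry and caMEK1 GFP library 2 held 28.7 of the MEK1 transgene and 25.7 of mCherry, and in liver caMKK6 GFP library 2 held 30.9 of MKK6 and 24.7 of mCherry. The part of these in the results for GFP neighbours was not tested. Colonic caMKK6 mCherry library 1 held 179 FPKM of EGFP, against 3.36 and 15.1 in the other replicates, and 5 of 12 caMKK6 MEF libraries held over 5 FPKM of the MEK1 transgene.

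Libraries held 9267318 to 14534256 reads in liver, 6671204 to 17396973 in colon and 10888915 to 17763531 in MEFs. Of the 61 members, 47 passed the filter on low values in liver, 32 in colon and 16 in MEFs; 11 passed in every tissue. The 10 that passed nowhere were Gstt4, Sult1c1, Sult2a3, Sult6b1, Sult6b2, Ugt1a10, Ugt1a2, Ugt1a8, Ugt2a1 and Ugt2a2. A gene was called when its Benjamini-Hochberg adjusted p in limma, over all genes tested in the tissue, was below 0.05, and only called genes are said to rise or fall. Log2 fold changes are differences in mean log2(FPKM + 1), which understates changes of low genes, and ± after one is its standard error. For 22 members at least 20% of 50-base windows also occur in another gene, so that reads may have been split between copies; they include Gsta1, Gsta2, Gstm3, Gstp1, Gstp2, Ugt2b5, Ugt2b38, 4 Sult2a genes and all 9 Ugt1a genes. Because RNA was measured in bulk, fewer cells of a type and less RNA per cell cannot be told apart.

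The promoters of 5 members that carry the main liver results are shown with sequence from RefSeq (GRCm38.p6), 5′ to 3′ on the strand of the gene and ending at or near its start. Gstm1 (chr3:108017974-108018223, minus strand) and Gstm3 (chr3:107969284-107969424, minus strand) lie near each other and stood high in the same caMKK6 libraries. Sult1e1 (chr5:87591612-87591861, minus strand) and Sult1d1 (chr5:87569028-87569256, minus strand) are neighbours that were called higher in both colours of both kinases in liver, Sult1d1 with caMKK6 under some settings only. Ugt1a9 (chr1:88070529-88070778, plus strand) fell in caMEK1 liver. Capitals mark a match, on either strand, to GTTAATNAT, a form of the recognition sequence of the hepatocyte factor HNF1.
Gstm1: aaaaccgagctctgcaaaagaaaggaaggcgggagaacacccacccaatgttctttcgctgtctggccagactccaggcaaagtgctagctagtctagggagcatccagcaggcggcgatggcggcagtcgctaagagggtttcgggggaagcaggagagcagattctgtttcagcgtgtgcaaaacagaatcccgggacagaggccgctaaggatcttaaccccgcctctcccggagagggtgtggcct
Gstm3: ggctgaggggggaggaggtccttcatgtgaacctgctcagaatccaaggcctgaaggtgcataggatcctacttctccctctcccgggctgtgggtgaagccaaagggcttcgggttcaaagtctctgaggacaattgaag
Sult1e1: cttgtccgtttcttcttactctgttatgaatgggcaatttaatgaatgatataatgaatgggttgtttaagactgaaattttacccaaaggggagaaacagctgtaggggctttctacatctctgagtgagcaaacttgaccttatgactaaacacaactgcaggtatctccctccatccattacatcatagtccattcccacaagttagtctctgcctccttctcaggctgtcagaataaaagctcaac
Sult1d1: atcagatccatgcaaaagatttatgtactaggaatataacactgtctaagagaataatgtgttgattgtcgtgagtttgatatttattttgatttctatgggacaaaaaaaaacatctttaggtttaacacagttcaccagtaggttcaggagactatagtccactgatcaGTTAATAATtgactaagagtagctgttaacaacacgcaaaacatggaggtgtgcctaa
Ugt1a9: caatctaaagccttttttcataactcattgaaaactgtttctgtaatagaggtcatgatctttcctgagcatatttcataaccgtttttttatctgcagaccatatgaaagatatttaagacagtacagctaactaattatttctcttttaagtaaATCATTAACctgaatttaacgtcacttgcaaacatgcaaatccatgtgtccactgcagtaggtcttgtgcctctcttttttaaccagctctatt

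RefSeq promoters were found for 54 of the 61 members, as windows of up to 250 bases before the start. GTTAATNAT occurred in those of 8 members (Sult1d1, Sult2a3, Sult2a4, Sult2a5, Sult2a6, Ugt1a1, Ugt1a9 and Ugt1a10) and in 0.737% of all 32851 promoters. TGACNNNGC, the core of the NRF2 element, occurred in 3 members (Gsta3, Gstm5 and Gstm7) and in 10.2% of all promoters. The AP-1 sequence TGACTCA occurred in 7 members and 4.46% of all promoters, and the STAT sequence TTCNNNGAA in 4 members and 7.02%. All were searched on both strands; Gstm1, Gstm3 and Sult1e1 held none of the 4 in the windows shown. A match is a description of these letters only.

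In untreated GFP cells the tissues used different members of the same families. Untreated hepatocytes (9 libraries) were led by Gstm1, at 297, 549 and 759 FPKM (lowest, median and highest), followed by the glucuronidating Ugt2b5 at 409, 451 and 555 and Ugt2b1 at 352, 417 and 544. Gstp1, the pi-class GST, stood at 349, 385 and 553 FPKM, Ugt2b36 at 298, 328 and 343 and Gsta3, an alpha-class GST that conjugates aflatoxin epoxide in mice, at 157, 228 and 246. The ranges of Gstm1, Ugt2b5, Ugt2b1 and Gstp1 overlap, so their order is not resolved.

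Untreated colonic cells (9 libraries) were led by Sult1a1, the phenol sulfotransferase, at 221, 277 and 448 FPKM (lowest, median and highest). Gstm1 followed at 172, 219 and 232 FPKM and Gsto1, an omega-class GST with thioltransferase activity, at 159, 194 and 242. Ugt2b34 stood at 93.7, 117 and 137 FPKM, Sult1d1, which sulfates catecholamines, at 81.1, 108 and 168, and Gstm2 at 50.8, 54.9 and 72.3. The first 3 overlap in range, as do Ugt2b34 and Sult1d1. MEFs without doxycycline (6 libraries) were dominated by Gsto1 at 359.8, 393 and 424 FPKM. The next were Gstp1 at 20, 26.6 and 28.6, Gsta4 at 18.5, 24.9 and 39.9 and Gstm5 at 18.9, 20.6 and 22.1 FPKM, which overlap.

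Between untreated liver and colon, 23 members were higher in liver and 14 in colon of 40 tested. Nearly all genes differed in this comparison: 94.1% of 11968 were called, 17.1% higher in liver and 77% higher in colon (48.8% of the called genes, in place of 18.2%, were higher in liver after scaling to a common median, with 27 and 9 members). The members' median log2 difference, liver minus colon, was 1.25, against -0.95 over all genes. UGTs were mostly higher in liver (11 higher and 2 lower of 14) and GSTs were divided (10 and 7 of 19), whereas 5 of 7 SULTs were higher in colon and 2 in liver.

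Ugt2b1 averaged 436 FPKM in liver and 0.0194 in colon, and Sult2a8, a bile acid sulfotransferase, 181 FPKM in liver with no read in colon, at least 1319-fold above a floor of 3 reads per library. Ugt2a3 (log2 difference 7.36 ± 0.05), Ugt2b36 (6.91), Gsta3 (5.20) and Gsta2 (4.71) were also higher in liver. In the other direction Ugt1a7c averaged 0.331 FPKM in liver and 30.3 in colon, Sult1c2 1.88 and 36, and Gsto1 48.3 and 201. Sult2b1, which sulfates cholesterol, had no read in the 9 untreated liver libraries and averaged 3.71 FPKM in untreated colon. Gsta4, which clears 4-hydroxynonenal, averaged 37.6 and 36.6 FPKM (log2 difference 0.03, adjusted p = 0.86), and Ugt2b34 128 and 115 (0.15, adjusted p = 0.11); neither was called.

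In caMEK1 liver, mCherry libraries held less of most UGTs and GSTs than control mCherry libraries on doxycycline, and more of 3 sulfotransferases. Of 47 members, 23 fell and 3 rose, while 27.1% of 10371 genes were called, 10.7% higher and 16.3% lower. The members' median log2 change was -1.05, against -0.04 over all genes. All 7 Ugt2b genes fell, as did 11 of 13 UGTs, 10 of 19 GSTs (5 of 7 Gstm, 3 of 4 Gsta) and 2 of 15 SULTs. The summed FPKM of UGTs averaged 194 (range 114 to 318) against 2064 (1905 to 2223), and that of GSTs 258 (195 to 378) against 858 (804 to 911). Without animal 3, 26 of 40 members tested were called, 2 higher and 24 lower. The share of all genes called in that fit is not given here, so this count is not read as particular to the members.

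Among the Ugt2b genes, Ugt2b1 read 4.05, 2.34 and 16.5 FPKM in the caMEK1 mCherry libraries and 368 and 532 in control mCherry libraries (-6.06 ± 0.67, adjusted p = 4.6e-06; -6.75 ± 0.52 without animal 3). Ugt2b5 read 41, 20.7 and 65.2 against 559 and 634 FPKM (-3.92 ± 0.50, adjusted p = 2.2e-05; -4.30 without animal 3). Ugt2b36 read 31.7, 21 and 75.5 against 394 and 429 FPKM (-3.44 ± 0.43; -3.94 without animal 3). The groups did not overlap for any of these, and animal 3 was the highest of the 3 each time. Ugt2b34 fell by 3.60 and Ugt2b35 by 3.17 on the log2 scale. Ugt2b38 had no read in any of the 3 libraries, against 12.2 and 14.7 FPKM, at least 89.8-fold lower at a floor of 3 reads per library.

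These genes lie side by side on chromosome 5 (GRCm38), from Ugt2b34 at 86889767-86906937 through Ugt2b1 (86916638-86926530) and Ugt2b35 to Ugt2b38 (87409942-87424203). The same stretch runs on to Sult1b1 (87513339-87538195), Sult1d1 (87554645-87569027) and Sult1e1 (87575969-87591594), the last pair 6.94 kb apart. All of them are on the minus strand except Ugt2b35. The Ugt2b genes fell in caMEK1 liver, while Sult1d1 and Sult1e1 at the other end of the stretch rose.

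Sult1e1, the oestrogen sulfotransferase, was nearly silent in all liver libraries of control mice and of untreated mice. It passed the filter on low values only through libraries of kinase mice on doxycycline, of both colours. It read 183, 214 and 66.4 FPKM in caMEK1 mCherry libraries, or 3206, 2819 and 985 reads, against 0.13 and 0.131 FPKM in control mCherry libraries, from 2 reads each (6.94 ± 0.33, adjusted p = 1.3e-10; 7.46 ± 0.17 without animal 3). Sult1d1 read 77.3, 118 and 88 against 19.4 and 16.5 FPKM (2.32 ± 0.24, adjusted p = 2.3e-06). The groups did not overlap for either gene. Sult1a1 read 184, 118 and 224 against 82.8 and 58.4 FPKM (1.27 ± 0.45, adjusted p = 0.042); its call was lost without animal 3 (1.07, adjusted p = 0.12), without control library 1 (1.52, adjusted p = 0.094) or 2 (1.02, adjusted p = 0.27) or caMEK1 library 1 (1.21, adjusted p = 0.098), without the filter on low values (adjusted p = 0.067) and against untreated GFP cells of the same genotype (0.52, adjusted p = 0.33).

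Sult2a8, the bile acid sulfotransferase, went the other way: 0.388, 0.316 and 1.1 FPKM in caMEK1 mCherry libraries against 126 and 111 in control mCherry libraries (-6.25 ± 0.48, adjusted p = 7e-08; -6.46 without animal 3). Sult5a1 fell to 1.11, 0.533 and 1.59 from 4.09 and 7.58 FPKM. Without animal 3, 7 other members no longer passed the filter on low values. In its mCherry and GFP libraries Sult2a1 read 33.5 and 77.4 FPKM, Sult2a2 24.6 and 48, Sult2a6 6.82 and 12.5 and Sult3a1 4.2 and 8.58; the others were Sult2a4, Sult2a5 and Sult3a2. Sult2a1 and Sult3a1 are female-predominant in mouse liver.

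Among GSTs, Gstm1 read 20.5, 34.9 and 148 FPKM against 284 and 196 (-2.29 ± 0.72, adjusted p = 0.024). The groups did not overlap, but animal 3 lay close to the controls, and without that animal the change was -3.10 ± 0.60 (adjusted p = 0.0011). The call was lost without control library 1 (-2.02, adjusted p = 0.17), control library 2 (-2.55, adjusted p = 0.079), caMEK1 library 1 (-1.70, adjusted p = 0.11) or caMEK1 library 2 (-2.07, adjusted p = 0.079), and under quantile normalization (-1.51, adjusted p = 0.15). Gsta3 read 10, 7.18 and 22.6 against 155 and 126 FPKM (-3.45 ± 0.65, adjusted p = 0.00079; -3.88 without animal 3). Gsta2 fell from 14.6 and 14.1 FPKM to 0, 0.08 and 0.569. Gstp1 read 57.5, 66 and 39.8 against 200.2 and 232 FPKM (-2.00 ± 0.57, adjusted p = 0.014), a call lost without control library 1 (-2.10, adjusted p = 0.071) or 2 (-1.89, adjusted p = 0.1) and under quantile normalization (-1.23, adjusted p = 0.12). Gsto1 and Gstm7 were not called: Gsto1 stood at 18.8, 18.9 and 28.1 against 26.8 and 20.7 FPKM and Gstm7 at 18.3, 12.6 and 20.4 against 17.5 and 17.5, so that the groups overlapped.

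Within the Ugt1a locus, Ugt1a9 read 0.485, 0.258 and 6.57 FPKM against 41 and 45.5 (-4.19 ± 0.82, adjusted p = 0.0011; -5.02 without animal 3). Ugt1a1, the bilirubin UGT, read 19.2, 21.9 and 61.5 against 88.8 and 82 FPKM (-1.49, adjusted p = 0.026), and Ugt1a6b 7.79, 7.59 and 7.38 against 22 and 20.7 (-1.38, adjusted p = 0.00013). Since the isoforms share most exons, values of single Ugt1a genes are uncertain.

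**Figure D1:**
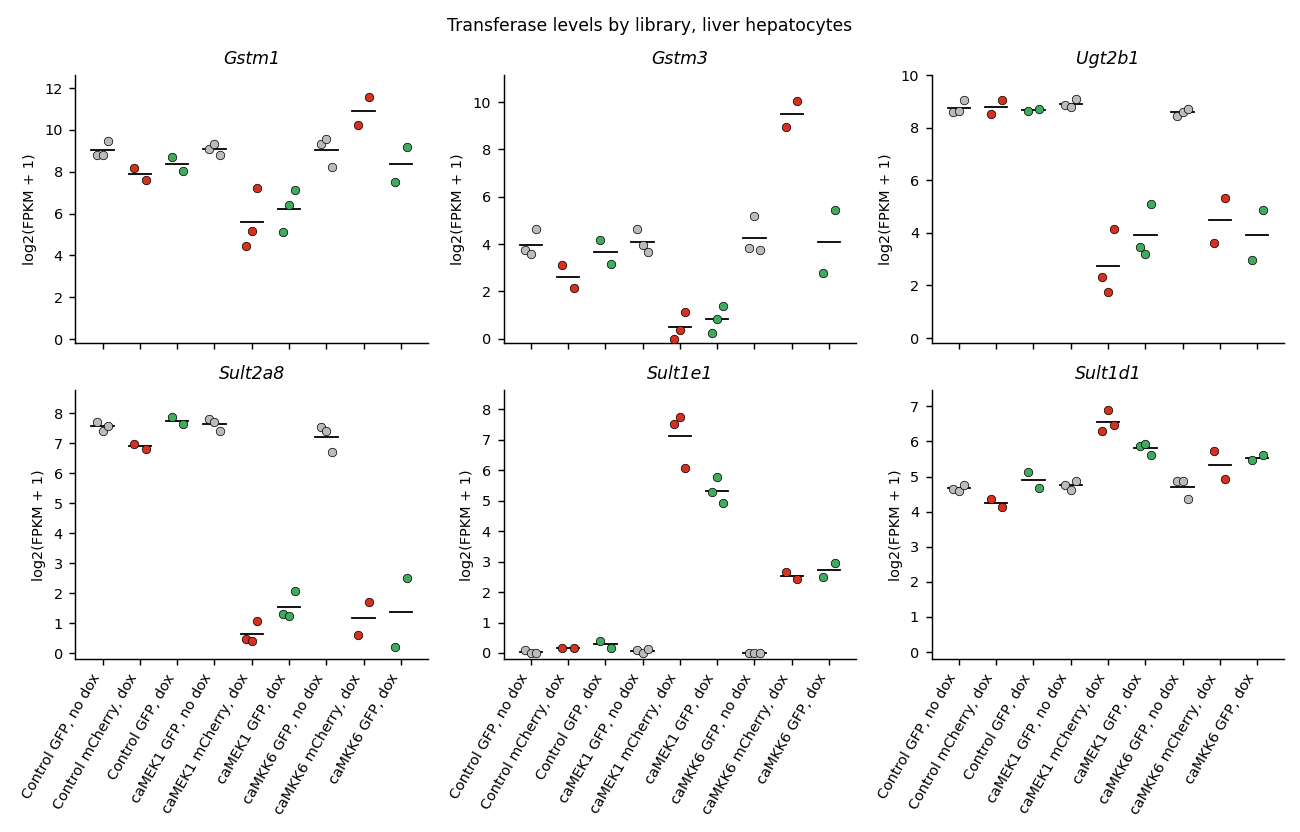
Levels of 6 members, as log2(FPKM + 1), in every liver library, by genotype and doxycycline; red points are mCherry cells and green points GFP cells on doxycycline, grey points GFP cells without it, and horizontal lines are group means of the log values. All caMEK1 and caMKK6 libraries on doxycycline lie below the other groups for Ugt2b1 and Sult2a8 and above them for Sult1e1, whereas Gstm3 stands at 496 and 1050 FPKM in caMKK6 mCherry cells and at or below 1.15 in caMEK1 mCherry cells.

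In caMKK6 liver, mCherry libraries held less of Sult2a8 and of 7 UGTs than control mCherry libraries and more of the mu-class GSTs Gstm1 and Gstm3. Of 47 members, 6 rose and 14 fell, while 38.2% of genes were called, 28.9% higher and 9.29% lower. The members' median change was 0.00, against 0.25 over all genes, a shift to which single changes are relative. After scaling to a common median 3 rose and 15 fell, and 39.4% of called genes were higher in place of 75.7%. By family, 4 GSTs rose and 4 fell of 19, 7 UGTs fell of 13, and 2 SULTs rose and 3 fell of 15. Of these 15 SULTs, 7 passed the filter only through caMEK1 animal 3 and held at most 4 reads in any caMKK6 liver library. Their changes here could only lie near 0, and they pull the members' median towards it. Without control mCherry library 2 the count fell from 20 to 10. The comparison uses the same 2 control mCherry libraries as that for caMEK1.

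Gstm3 read 496 and 1050 FPKM in caMKK6 mCherry libraries, against 7.56 and 3.36 in control mCherry libraries (6.89 ± 0.72, adjusted p = 6.1e-06). Gstm1 read 1192 and 3044 against 284 and 196 FPKM (3.01 ± 0.78, adjusted p = 0.0076), a call lost without control library 2 (2.74, adjusted p = 0.066) or caMKK6 library 2 (2.33, adjusted p = 0.061) and against untreated GFP cells (1.86, adjusted p = 0.051). The summed FPKM of GSTs was 1972 and 4909, against 804 and 911. In untreated caMKK6 GFP cells this sum ranged from 1051 to 1993, so that only library 2 stood above them. Both caMKK6 libraries exceeded every other liver library for Gstm1 and Gstm3. Gstp2 (2 and 9.01 against 1.45 and 0.807 FPKM) and Gstp3 (11.9 and 31.3 against 9.32 and 6.11) were called higher, but without caMKK6 library 2 their changes were 0.51 (adjusted p = 0.37) and 0.59 (adjusted p = 0.32).

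Other mu-class members depended on the library: Gstm4 read 5.55 and 36.3 against 16.4 and 17.9 FPKM, and Gstm6 5 and 40.5 against 10.7 and 8.87, neither called. Library 2 was the higher of the pair for Gstm1, Gstm3, Gstm4, Gstm6, Gstp1, Gstp2 and Gstp3. Its Cyp2b9 level was 85.6 FPKM and its MKK6 transgene 1211 FPKM against 216 in library 1. Whether these differences play a part was not tested.

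Among sulfotransferases, Sult2a8 read 0.509 and 2.29 against 126 and 111 FPKM (-5.74 ± 0.53, adjusted p = 2e-06). Sult1e1 reached 5.25 and 4.4 FPKM (2.36 ± 0.37, adjusted p = 0.00022) and Sult1d1 51.6 and 29.4 (1.08 ± 0.26, adjusted p = 0.005). Sult1d1 lost its call under median scaling (0.69, adjusted p = 0.079), against untreated GFP cells (0.62, adjusted p = 0.051) and without control library 2 (0.97, adjusted p = 0.054) or caMKK6 library 1 (0.69, adjusted p = 0.086). Sult1b1, a thyroid hormone sulfotransferase, fell to 1.46 and 0.902 from 4.67 and 3.99 FPKM, and Sult1a1, at 71.7 and 267, was not called (0.99 ± 0.49, adjusted p = 0.12).

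Among UGTs, Ugt2b1 read 11.4 and 39.6 against 368 and 532 FPKM (-4.31 ± 0.73, adjusted p = 0.00045). Ugt2a3 read 7.1 and 23.5 against 131 and 151 (-3.33 ± 0.44, adjusted p = 5.6e-05), and Ugt2b38 0.0421 and 0.0473 against 12.2 and 14.7 (-3.78 ± 0.36). These 3 were low in both libraries. For Ugt2b5 (132 and 371 against 559 and 634 FPKM) the change was -1.42 ± 0.54 (adjusted p = 0.048) and for Ugt2b36 (118 and 188 against 394 and 429) -1.46 ± 0.47 (adjusted p = 0.022); without caMKK6 library 1 they were -0.68 (adjusted p = 0.44) and -1.13 (adjusted p = 0.16). Ugt2b35, at 29.7 and 177 against 128 and 135, overlapped the controls.

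GFP cells of the same mice, compared with untreated GFP cells of their genotype, also had lower UGTs and GSTs, and most members that fell in the mCherry cells fell in them too. In caMEK1 GFP cells 26 members fell and 2 rose of 47, while 38.5% of genes were called, 6.46% higher and 32% lower (16.8% of called genes were higher, and 38.6% after median scaling, with 26 members lower and 3 higher). The members' median was -1.40, against -0.25 over all genes. The mCherry and GFP comparisons of a kinase share no library, though they share animals: 21 members fell in both, 91.3% of the 23 of mCherry and 80.8% of the 26 of GFP cells. The overlap over all genes was not counted, so these shares are not read as particular to the members. Without animal 3, 27 fell and 2 rose of 40. Against control GFP cells on doxycycline the count was again 26 lower and 2 higher. For neither of these 2 fits is the share of all genes called given here.

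In caMEK1 GFP cells Sult2a8 read 1.47, 1.35 and 3.19 FPKM, against 224, 208 and 170 untreated (-6.11 ± 0.43, adjusted p = 5.2e-08). Ugt2b1 read 9.9, 8.05 and 33.6 against 463, 446 and 544 FPKM (-5.01 ± 0.60, adjusted p = 1.8e-05). Sult1e1 read 37.7, 54.1 and 29.4 against 0.082, 0 and 0.0869 FPKM (5.25 ± 0.30, adjusted p = 3e-09; 5.45 without animal 3). For none of these 3 did treated and untreated libraries overlap. Gstm1 read 34.3, 83.9 and 139 against 549, 633 and 444 FPKM (-2.84 ± 0.64, adjusted p = 0.0025), Gstm3 fell by 3.27 and Gstp1 by 3.60 on the log2 scale, and Sult1d1 rose by 1.05 ± 0.21. Gstm7 was lower only with the animal as a block (-0.97, adjusted p = 0.049).

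In caMKK6 GFP cells 19 members fell and 2 rose of 47, while 19% of genes were called, 5.21% higher and 13.8% lower (27.4% of called genes were higher, 38% after median scaling, with 16 members lower and 2 higher). The members' median was -0.68, against -0.07 over all genes. The 47 again include the 7 SULTs that passed the filter only through caMEK1 animal 3, with changes near 0 here. In both colours 13 members fell, 92.9% of the 14 of mCherry and 68.4% of the 19 of GFP cells, again without a count over all genes to set beside them. Without caMKK6 GFP library 1 the count dropped from 21 to 6 (5 lower, 1 higher), and without untreated caMKK6 library 1 to 13. The replicate block added Gstm4 (-1.72, adjusted p = 0.033) and Ugt2b34 (-1.70, adjusted p = 0.023).

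Sult2a8 read 0.147 and 4.72 FPKM in caMKK6 GFP cells, against 186, 167 and 103 untreated (-5.86 ± 0.48, adjusted p = 7.6e-07), and Ugt2b1 6.77 and 28.6 against 352, 385 and 417 (-4.67 ± 0.67, adjusted p = 0.00026). Sult1e1 read 4.65 and 6.81 FPKM with no read untreated, at least 27.3-fold higher at a floor of 3 reads per library. Each lay apart from the untreated libraries in both animals. Sult1d1 rose by 0.84 ± 0.24 (adjusted p = 0.022), a call lost against control GFP cells on doxycycline (0.64, adjusted p = 0.1) and without untreated library 3 (0.67, adjusted p = 0.064) or GFP library 1 (0.91, adjusted p = 0.14) or 2 (0.78, adjusted p = 0.054). Gstm1, at 181 and 586 against 636, 759 and 297 FPKM, was not called. Falls of Gstp1 (-2.51, adjusted p = 0.007), Gsta4 (-2.41, adjusted p = 0.022), Ugt2b35 (-2.69, adjusted p = 0.0099), Ugt2b5 (-1.97, adjusted p = 0.013) and Ugt2b36 (-1.61, adjusted p = 0.016) lost their calls without GFP library 1, where the values were -1.52, -1.36, -1.20, -0.99 and -0.80.

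With doxycycline alone, no member was called by limma in control liver GFP cells with against without it (1 at an unadjusted p under 0.05; 0 by limma on recovered reads), where 0.0868% of genes were called, 0.0482% higher and 0.0386% lower. Control mice received 2 mg/mL, the dose of caMKK6 mice. Ddx3y, as given above, moved with doxycycline in this comparison.

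Between the colours of the same animals, in the fit without a block, 1 member was higher and 1 lower in caMEK1 mCherry than GFP cells (4.71% of genes called, 3.75% higher and 0.955% lower). That fit does not pair the 2 libraries of an animal. Sult1e1 was higher in mCherry cells (1.79 ± 0.30, adjusted p = 0.0014), and Ugt1a6b lower (-0.70 ± 0.19, adjusted p = 0.041; -0.72 without animal 3, adjusted p = 0.09). With the animal as a block 12 members were called, 10 of them lower in mCherry cells, among them Ugt2b1 (-1.18 ± 0.14, adjusted p = 0.0023), Gsta3 (-1.37, adjusted p = 0.0093), Ugt2a3 (-1.04, adjusted p = 0.0084) and Ugt2b34 (-0.91, adjusted p = 0.009); Sult1d1 was higher (0.76, adjusted p = 0.036). The share of all genes called with the block is not given here, so this count is not read as particular to the members. The count without 1 library was 1 to 3, and lay at 1 without mCherry library 1 or 2 or GFP library 2 or 3. The colours of control mice were not compared by a test. Their summed FPKM averaged, in mCherry and GFP cells, 858 and 1230 for GSTs, 2064 and 1515 for UGTs, and 219 and 381 for SULTs. The part of such differences in the colour results with a kinase was not tested.

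In caMKK6 mice 2 members were higher and none lower in mCherry than GFP cells by limma (4.28% of genes called, 3.99% higher and 0.289% lower; the median over all genes was 0.20). Gstm3 read 496 and 1050 FPKM in mCherry cells against 5.83 and 41.8 in the GFP cells of the same animals (5.40 ± 0.72, adjusted p = 0.00037). Gstp2 was higher by 1.75 ± 0.45 (adjusted p = 0.035), but by 0.89 (adjusted p = 0.27) without mCherry library 2. With the animal as a block, for which the share of all genes is again not given, 14 were called, 11 higher and 3 lower, among them Gstm1 (2.54 ± 0.27, adjusted p = 0.0027; 2.54 ± 0.78, adjusted p = 0.076 without the block), Ugt2b35 (2.10 ± 0.19, adjusted p = 0.0019), Gstp1 (1.64, adjusted p = 0.017), Gstp3 (1.36, adjusted p = 0.021) and, lower, Ugt2a3 (-1.58, adjusted p = 0.0055). The count was 7 without mCherry library 1 and 6 without GFP library 2.

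The caMEK1 and caMKK6 mCherry libraries of liver differed in 20 of 47 members, 4 higher and 16 lower in caMEK1, while 31.7% of genes were called, 4.52% higher and 27.2% lower. The median was -0.45 over members and -0.31 over all genes, and after median scaling 4 were higher and 10 lower (51.5% of called genes higher in place of 14.2%). Gstm3 differed by -9.01 ± 0.66 (adjusted p = 4.7e-08) and Gstm1 by -5.29 ± 0.72 (adjusted p = 5.2e-05). Sult1e1 was higher in caMEK1 by 4.58 ± 0.33 (adjusted p = 4.7e-08; 5.10 without animal 3), Sult1b1 by 1.47 ± 0.27 and Sult1d1 by 1.23 ± 0.24. In all, 10 GSTs and 6 UGTs were lower in caMEK1, and 3 SULTs and 1 UGT higher. Without animal 3, 4 members were higher and 18 lower, again without the share of all genes beside them. Without caMKK6 mCherry library 2, 11 were called, 5 higher and 6 lower; Ugt2b1 was called only with the block (-1.75, adjusted p = 0.023).

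Markers of cell types moved beside these results. All 8 hepatocyte markers were at 1 FPKM or more in the liver groups, with sums of 72230 to 104026 FPKM in caMEK1 mCherry, 31759 to 34407 in caMKK6 mCherry and 40335 to 40387 in control mCherry libraries. The pericentral list, genes of hepatocytes near the central vein, summed to 177 to 442, 310.4 to 436 and 2737 to 2786 FPKM in that order (5 of 7 lower with caMEK1, 4 of 7 with caMKK6). Sums of the periportal list, genes of hepatocytes near the portal vein, are not given here, so that no zone can be singled out. Neutrophil markers summed to 4.13 to 25.9 FPKM with caMEK1 against 1.15 to 1.62 (4 of 4 tested higher; Mpo and Ly6g at 0 in the controls), and cholangiocyte markers to 27.8 to 114 against 9.05 to 13.5 (2 of 3 higher). Afp, a marker of fetal hepatocytes, read 1002, 925 and 184 FPKM in caMEK1 mCherry and 19.8, 92 and 14.3 in caMEK1 GFP libraries on doxycycline, against at most 0.661 in every other liver library. Kupffer cell markers ranged from 52 to 553 FPKM in caMEK1 GFP cells, against 29.6 to 48.6 untreated (2 of 8 higher, none at 0). Their part in the transferase results was not tested.

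In caMEK1 colon, 2 alpha-class and 2 pi-class GSTs rose in mCherry cells, while 4 mu-class GSTs, 5 UGTs and the sulfotransferases Sult1a1 and Sult1c2 fell. Of 32 members, 5 rose and 14 fell, and 21.5% of 11542 genes were called, 9.54% higher and 12% lower. The members' median was -0.57, against -0.14 over all genes (44.3% of called genes were higher, 55.5% after median scaling, with 5 members higher and 13 lower). Among GSTs 4 rose and 7 fell of 18, 5 UGTs fell of 9, and 1 SULT rose and 2 fell of 5. Without caMEK1 mCherry library 2 the count fell from 19 to 12.

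Gsta1 read 45.3 and 52.6 FPKM against 1.53 and 3.23 in control mCherry cells (3.93 ± 0.39, adjusted p = 1.6e-06). Gsta4 read 193 and 190.1 against 17 and 47 FPKM (2.71 ± 0.36, adjusted p = 4.1e-05). Gstp3 read 20 and 16.2 against 2.15 and 3.14 FPKM (2.40 ± 0.38, adjusted p = 0.0002). Both caMEK1 libraries lay far above all control and untreated libraries for these 3. Sult2b1 (11.6 and 14.1 against 5.55 and 3.71 FPKM, 1.31 ± 0.41, adjusted p = 0.031) lost its call without control library 2 (1.07, adjusted p = 0.19) or caMEK1 library 2 (1.18, adjusted p = 0.19). Gstp1 (43.5 and 40.8 against 15.8 and 27.1, 0.99 ± 0.34, adjusted p = 0.044) lost it without control library 1 (0.62, adjusted p = 0.29) or caMEK1 library 1 (0.94, adjusted p = 0.14) or 2 (1.03, adjusted p = 0.16), without the filter (adjusted p = 0.067) and against untreated GFP cells (0.26, adjusted p = 0.56).

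Among those that fell, Sult1a1, the most abundant member of untreated colon, read 72.8 and 22.5 FPKM against 295 and 271 (-2.77 ± 0.40, adjusted p = 7.5e-05). Sult1c2 read 5.08 and 1.95 against 40 and 41.3 (-3.30 ± 0.42, adjusted p = 2.2e-05), and Gstt1, a theta-class GST that acts on small halogenated compounds, 4.23 and 1.78 against 18.2 and 13.8 (-2.14 ± 0.33, adjusted p = 0.00016). Library 2 was the lower of the pair each time. Gstm2 read 21 and 12.1 against 54.2 and 51.4 FPKM (-1.66 ± 0.22) and Gstm3 9.95 and 7.38 against 25.7 and 57.2 (-2.04 ± 0.31). Ugt2b34 read 57.5 and 34 against 127 and 148 FPKM (-1.61 ± 0.21, adjusted p = 3e-05), and Ugt2b35 2.47 and 0.591 against 11.3 and 26.5 (-2.97 ± 0.40). Ugt2b5 fell to 0.459 and 0.267 from 5.7 and 29.7 FPKM. Sult1d1, at 149 and 108 against 131 and 169.6, and Gsto1, at 254 and 203 against 239 and 209, overlapped the controls. Gstk1 was called without the block and not with it (adjusted p = 0.06).

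**Figure D2:**
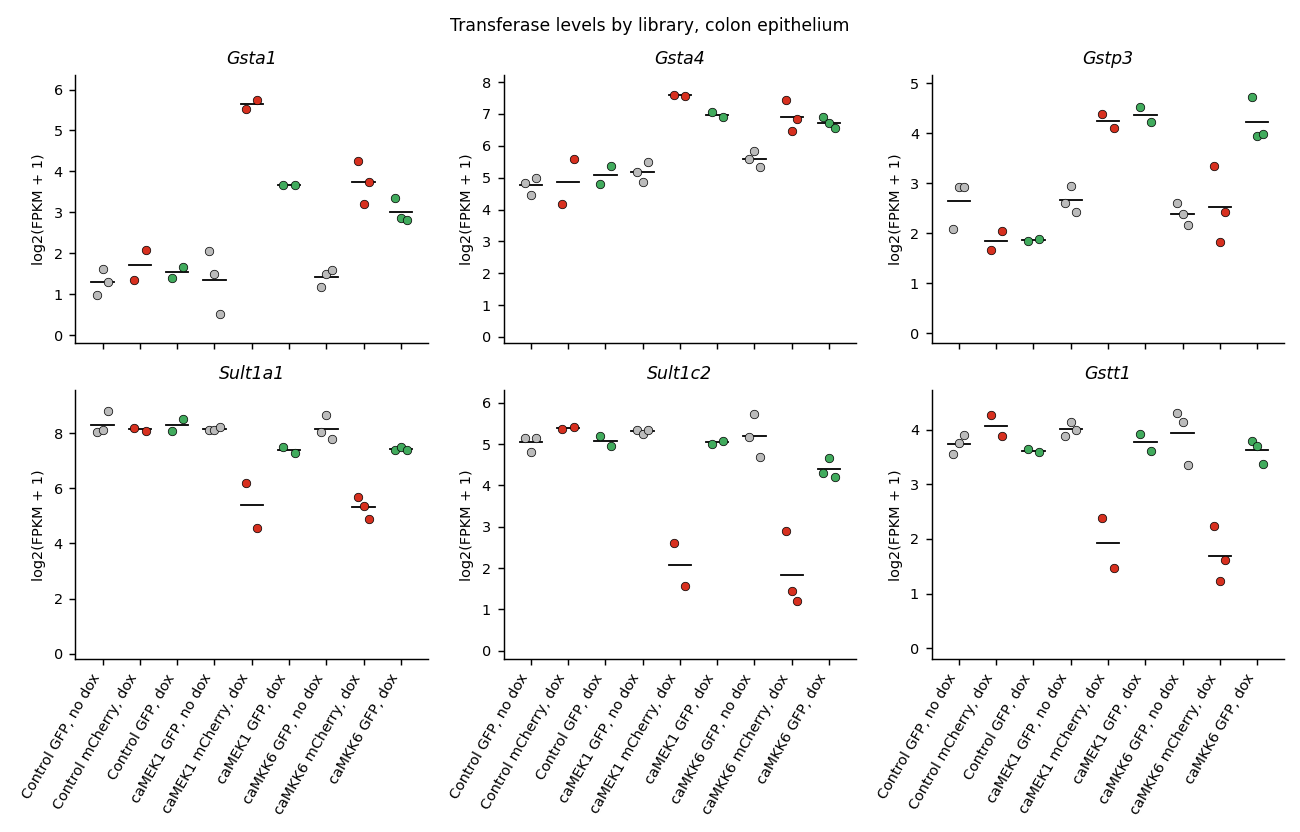
Levels of 6 members, as log2(FPKM + 1), in every colon library, by genotype and doxycycline; red points are mCherry cells and green points GFP cells on doxycycline, grey points GFP cells without it, and horizontal lines are group means of the log values. Gsta1 and Gsta4 are above the untreated libraries in both colours of both kinases, while Sult1a1, Sult1c2 and Gstt1 are lowest in the mCherry cells of both kinases.

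In caMKK6 colon, mCherry cells also had more alpha-class GSTs and less Sult1a1, Sult1c2 and Gstt1, with 6 members higher and 8 lower of 32. Of all genes 20.8% were called, 11.1% higher and 9.7% lower. The members' median was -0.18, against -0.06 over all genes. All 6 that rose were GSTs, and the falls comprised 3 GSTs, 3 UGTs and 2 SULTs. The control mCherry libraries are those of the caMEK1 comparison.

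Gsta1 read 18.1, 8.25 and 12.3 FPKM against 1.53 and 3.23 (2.02 ± 0.35, adjusted p = 0.00073), and Gsta4 172, 88 and 113 against 17 and 47 (2.04 ± 0.33, adjusted p = 0.00042). Gsta3 read 36.2, 13 and 24 against 3.04 and 4.87 FPKM (2.27 ± 0.37, adjusted p = 0.00038). The 3 caMKK6 libraries lay above both controls for each gene, with library 1, the one with 179 FPKM of EGFP, the highest. Gstp1 read 87.7, 82.2 and 50 against 15.8 and 27.1 FPKM (1.73 ± 0.31, adjusted p = 0.00083). The rise of Gstm1 (274, 238 and 317 against 101 and 194 FPKM, 0.97 ± 0.30, adjusted p = 0.029) was lost without control library 1 (0.50, adjusted p = 0.37) and against untreated GFP cells (0.47, adjusted p = 0.21), and that of Gstt2 (0.73 ± 0.23, adjusted p = 0.03) without each of the 5 libraries in turn (0.70 to 0.77, adjusted p of 0.053 to 0.12).

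Sult1a1 read 50.4, 40.4 and 29 FPKM (-2.83 ± 0.36, adjusted p = 5e-05), Sult1c2 6.4, 1.71 and 1.3 (-3.54 ± 0.38, adjusted p = 8.9e-06) and Gstt1 3.74, 1.34 and 2.05 (-2.38 ± 0.30, adjusted p = 4.7e-05), each below both controls in all 3 libraries. Ugt2b34 read 61.1, 67.7 and 62.8 FPKM (-1.09 ± 0.19, adjusted p = 0.00073). Ugt2b5 fell by 2.31 on the log2 scale, but by 1.21 without control library 2 (adjusted p = 0.19). Gstm2 (39.4, 32 and 29.9 FPKM, -0.64 ± 0.20, adjusted p = 0.034) lost its call under median scaling (-0.59, adjusted p = 0.053) and without control library 1 (-0.60, adjusted p = 0.15) or 2 (-0.68, adjusted p = 0.098) or caMKK6 library 2 (-0.61, adjusted p = 0.082) or 3 (-0.56, adjusted p = 0.1). Sult1b1 (20.3, 18.8 and 13.4 against 56.7 and 26.3) was called only with the block (-1.12, adjusted p = 0.047).

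In the GFP neighbours of colon the members that rose were GSTs with either kinase. In caMEK1 GFP cells 3 members rose and 1 fell of 32, against untreated GFP cells, while 1.33% of genes were called, 0.91% higher and 0.425% lower. Gsta1 read 11.7 and 11.7 FPKM against 3.15, 1.79 and 0.432 untreated (2.32 ± 0.35, adjusted p = 0.0016), and Gsta4 132 and 119 against 35.2, 28 and 44.2 (1.80 ± 0.33, adjusted p = 0.0081). Gstp3 read 22 and 17.6 against 5.12, 6.65 and 4.4 FPKM (1.71 ± 0.35, adjusted p = 0.016), and Gstm3 fell (-1.20 ± 0.28, adjusted p = 0.038). The groups did not overlap for the 3 that rose, all of which also rose in the mCherry cells. Without GFP library 1 only Gsta1 was called (Gsta4 1.72, adjusted p = 0.14; Gstp3 1.56, adjusted p = 0.28; Gstm3 -0.85, adjusted p = 0.54), and 2 members were called without untreated library 1 or 3 or GFP library 2.

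In caMKK6 GFP cells 8 members rose, all GSTs, and none fell of 32 by limma, while 2.6% of genes were called, 1.31% higher and 1.29% lower. Gstp3 read 25.5, 14.5 and 14.9 FPKM against 5.12, 4.23 and 3.5 untreated (1.84 ± 0.31, adjusted p = 0.0067). Gsta1 read 9.23, 6.31 and 5.98 against 1.25, 1.82 and 1.99 (1.59 ± 0.32, adjusted p = 0.016), and Gstm1 385, 541 and 636 against 172, 205 and 219.8 (1.36 ± 0.27, adjusted p = 0.016). All treated libraries exceeded all untreated ones for these 3. Gsta3, Gsta4, Gstm2, Gstm6 and Gstm7 rose by 1.30, 1.14, 0.82, 0.79 and 0.94 with adjusted p between 0.028 and 0.048. Of the 8, Gsta4 and Gstm7 lost their calls without each of the 6 libraries in turn, and Gsta1, Gsta3, Gstm1, Gstm2 and Gstm6 lost theirs without 2 to 5 of them; Gstm7 was not called with the block (adjusted p = 0.053). Leaving out a library left 1 to 5 members called (1 without untreated library 1 or 3, 2 without GFP library 1, 4 without untreated library 2 or GFP library 2, 5 without GFP library 3), and against control GFP cells on doxycycline 10 rose and 1 fell. The shares of all genes called in these fits are not given here. Gsta1, Gsta3, Gsta4 and Gstm1 rose in both colours of caMKK6 mice, 66.7% of the 6 that rose in mCherry and 50% of the 8 in GFP cells. The overlap over all genes was not counted here either.

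No member was called in control colon GFP cells with against without doxycycline by limma (3 at an unadjusted p under 0.05; 0 by limma on recovered reads; 2 without control GFP library 2), where 0% of genes were called in either direction.

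In the fit without a block, mCherry cells of the colon had lower mu-class GSTs than GFP cells of the same animals with either kinase. Control mice were again not compared by colour in a test. Their summed FPKM averaged, in mCherry and GFP cells, 657 and 730.3 for GSTs, 224 and 228 for UGTs, and 520.2 and 589 for SULTs. In caMEK1 mice 1 member was higher and 14 lower of 32 (13.4% of genes called, 5.71% higher and 7.72% lower; 42.5% of called genes higher, 55.1% after median scaling, with 1 member higher and 12 lower), and all 7 Gstm genes were lower. Gstm1 read 129.6 and 77.5 FPKM in mCherry and 260.4 and 287 in GFP cells (-1.44, adjusted p = 0.0067), and Gstm2 21 and 12.1 against 60.1 and 67 (-1.93 ± 0.22, adjusted p = 2.7e-05). Sult1c2 (-2.96 ± 0.42), Ugt2b35 (-2.55), Sult1a1 (-2.01 ± 0.40) and Gstt1 (-1.83) were lower as well, and Gsta1 was higher (1.97 ± 0.39, adjusted p = 0.0022). Without mCherry library 2 the count fell from 15 to 6, with Sult1a1 at -1.19 (adjusted p = 0.099), Gstt1 at -1.38 (adjusted p = 0.054) and Gstm1 at -1.07 (adjusted p = 0.18). The block added Ugt2b5 (-1.58, adjusted p = 0.0029), Gsta3 (-0.85) and Gstt2 (-0.65) to the lower and Ugt1a6b (1.22) and Ugt1a1 (1.14) to the higher members.

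In caMKK6 mice 13 members were lower in mCherry cells and none higher by limma (21.3% of genes called, 8.24% higher and 13.1% lower), 6 of the 7 Gstm genes among them. Gstm7 read 5.68, 2.9 and 2.58 FPKM against 15.2, 18.9 and 17.6 in GFP cells (-2.00 ± 0.24, adjusted p = 3e-05), and Gstm2 39.4, 32 and 29.9 against 111, 95.8 and 86.5 (-1.51 ± 0.18, adjusted p = 3e-05). Gstp3 read 9.15, 2.55 and 4.4 against 25.5, 14.5 and 14.9 FPKM (-1.69 ± 0.31, adjusted p = 0.00092). The colours did not overlap for these genes. Sult1c2 (-2.54 ± 0.34), Sult1a1 (-2.11 ± 0.32) and Gstt1 (-1.93 ± 0.27) were lower too. With the animal as a block 23 were called, 5 higher, among them Ugt1a6b (1.32, adjusted p = 0.0038), Gsta1 (0.72, adjusted p = 0.01) and Gsta3 (0.53, adjusted p = 0.013), and 18 lower. As in liver, the share of all genes called with the block is not given beside this count.

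The caMEK1 and caMKK6 mCherry cells of colon differed in 13 of 32 members, 5 higher and 8 lower in caMEK1 (20.7% of genes called, 8.56% higher and 12.1% lower). Gsta1 (1.91 ± 0.35, adjusted p = 0.00098), Gstp3 (1.72 ± 0.35, adjusted p = 0.0019), Sult2b1 (1.24, adjusted p = 0.026) and Ugt1a1 (2.18 ± 0.56, adjusted p = 0.0095) were higher in caMEK1; Ugt1a6a was called without the block and not with it (adjusted p = 0.052). Gstm3 was lower by 2.27 ± 0.28 (adjusted p = 2.3e-05), Ugt2b35 by 2.01 and Gsta3 by 1.65. Without caMEK1 mCherry library 2 the count was 5.

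Cell-type markers differed here as well. Goblet cell markers summed to 653 to 804 FPKM in caMEK1 mCherry, 6212 to 7789 in caMKK6 mCherry and 2108 to 5198 in control mCherry cells (6 of 7 lower and 3 of 7 higher). Stem and transit cell markers summed to 74 to 86, 93.2 to 139 and 139 to 255 FPKM (5 and 3 of 7 lower), and absorptive cell markers to 5785 to 5901, 2014 to 5117 and 2745 to 4736. Ddx3y, as given above, was low in all caMEK1 libraries on doxycycline and in 2 of 3 caMKK6 mCherry libraries, and so moved with the caMEK1 comparisons and with colour in caMKK6 mice. Their part in the transferase results was not tested.

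The change with a kinase was compared between liver and colon in a single fit over both tissues, which was not run under the other settings. Of 50 members tested, the caMEK1 change differed for 24 (19.6% of 12690 genes) and the caMKK6 change for 15 (23.6%). Members near 0 in colon, such as Ugt2b1, Sult2a8 and Sult1e1, could change there by little, so that for them the difference restates the liver change. Of the 30 members that passed the filter in both tissues, 14 and 7 differed. For caMKK6, 7 of 30 is near the 23.6% of all genes tested. The share among all genes that passed in both tissues was not counted, so neither count is read as particular to the members. For Gsta4 the sign differed: with caMEK1 it fell in liver (4.59, 1.56 and 11.9 against 25.5 and 21.2 FPKM, -2.09 ± 0.68) and rose in colon, a difference of -4.80 ± 0.82 (adjusted p = 5.9e-05). With caMKK6 it fell in liver (2.2 and 5.66 FPKM, -2.39 ± 0.75) and rose in colon, a difference of -4.43 ± 0.82 (adjusted p = 2.4e-04). The liver call of Gsta4 with caMKK6 was lost without control library 1 (-2.26, adjusted p = 0.088) or 2 (-2.52, adjusted p = 0.075) or caMKK6 library 1 (-1.86, adjusted p = 0.15).

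Sult1a1 had the opposite pattern, rising with caMEK1 in liver and falling in colon (difference 4.04 ± 0.62, adjusted p = 1.1e-05; 3.81 with caMKK6). Gstp1 fell in liver and rose in colon with caMEK1 (-2.98 ± 0.69, adjusted p = 0.0022). Gsta1 (-3.95, adjusted p = 2.2e-05), Gsta3 (-4.07, adjusted p = 3.7e-04) and Gstp3 (-2.23, adjusted p = 0.0044) also changed differently with caMEK1. With caMKK6 the largest difference among members was that of Gstm3 (6.66 ± 0.77, adjusted p = 2.0e-07), whose FPKM in colonic caMKK6 mCherry cells, 45.7, 44.9 and 44.6 FPKM against 25.7 and 57.2, lay within the controls. For Sult1d1, expressed in both tissues, the difference was 2.55 with caMEK1 and 1.81 with caMKK6.

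**Figure D3:**
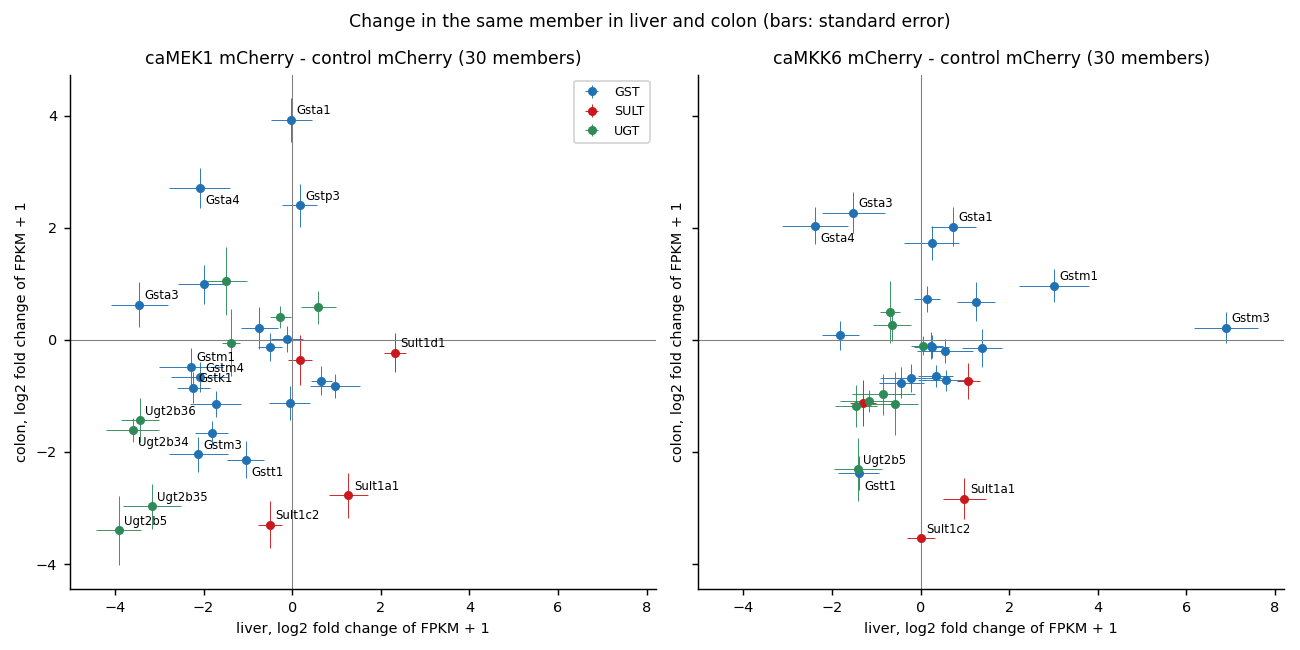
Log2 fold change of FPKM + 1 in mCherry cells against control mCherry cells in liver (x axis) and colon (y axis) for 30 members in each panel, caMEK1 and caMKK6; bars are standard errors, GSTs blue, UGTs green and SULTs red. Gsta4 lies at a rise in colon and a fall in liver in both panels, and Gstm3 of caMKK6 at 6.89 in liver. Sult1a1 lies on the positive side in liver and the negative side in colon in both panels, but was not called in liver with caMKK6.

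In MEFs Gsto1, Gsto2 and Gsta4 rose early and the mu-class gene Gstm2 fell with either kinase. With caMEK1, 5 members rose and 6 fell of 16 at day 2, 5 and 4 at day 4 and 3 and 4 at day 7. Of 11347 genes 39.3% were called at day 2 (19.5% higher, 19.8% lower), 57.8% at day 4 (28.5% and 29.3%) and 62.1% at day 7 (33.4% and 28.7%), so that the members' shares at days 4 and 7 (9 and 7 of 16) were near or below the background. At day 7 the split of members was 2 and 5 after median scaling and 1 and 6 after quantile normalization. With caMKK6, 5 rose and 4 fell at day 2 (39.2% of genes called, 14.3% higher and 24.8% lower), 5 and 3 at day 4 (44.8%; 17.1% and 27.7%) and 6 and 2 at day 7 (40.8%; 16.8% and 24%). After median scaling the splits were 6 and 4, 7 and 2, and 7 and 2, and 52.9%, 53.9% and 51.4% of called genes were higher in place of 36.6%, 38.2% and 41.1%. Gsta1 and Gsta2 held 0 or 1 read in each untreated library, passed the filter only through treated ones and could hardly have fallen. Both are among the rises on every day of caMKK6, and Gsta2 among those at days 4 and 7 of caMEK1. Sult1e1, with the same limit, is among the rises at day 4 of both kinases and day 7 of caMEK1. The counts of rises are therefore not read against the background. Leaving out untreated library 1 or 3 or day 7 library 1 or 2 lowered the caMKK6 day 7 count from 8 to 5, 5, 4 and 5. Over the same days the transgenes themselves fell. The MEK1 transgene read 1008, 1061 and 1169 FPKM at day 2 of caMEK1 and 500.1, 459.6 and 645 at day 7. The MKK6 transgene read 892, 1209 and 808 FPKM at day 2 of caMKK6 and 206, 666 and 129.7 at day 7. Changes between days were thus not made at a steady transgene level, and the part of its fall in them was not tested.

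Gsto1, by far the most abundant member in MEFs, read 381, 359.8 and 412 FPKM without doxycycline and 537, 561 and 534 at day 2 of caMEK1 (0.50 ± 0.09, adjusted p = 0.00025), then 428, 433 and 406 at day 4 and 318, 303 and 312 at day 7 (-0.30, adjusted p = 0.009). With caMKK6 it went from 424, 381 and 405 to 579, 528 and 522 at day 2 (0.43, adjusted p = 0.0015) and stood at 588, 428 and 498 at day 7 (0.31, adjusted p = 0.012). That last call was lost without untreated library 2 (0.27, adjusted p = 0.053) or day 7 library 1 (0.20, adjusted p = 0.093). The day 7 change differed between the kinases by -0.61 ± 0.13 (adjusted p = 0.0012).

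Gsta4 peaked at day 2 in both. It read 18.5, 22.1 and 32.8 FPKM untreated and 65.3, 65.8 and 69.5 at day 2 of caMEK1 (1.45 ± 0.27, adjusted p = 0.00024), and at day 4, with 34.6, 37.4 and 54.3, its call (0.77, adjusted p = 0.02) was lost without untreated library 1 (0.60, adjusted p = 0.1) or 2 (0.72, adjusted p = 0.06) or day 4 library 3 (0.58, adjusted p = 0.11). With caMKK6 it went from 21.4, 39.9 and 27.8 to 88.9, 155 and 90.4 FPKM at day 2. Gsto2 went the same way, from 2.42, 2.74 and 2.23 FPKM to 8.42, 10.8 and 8.21 at day 2 of caMKK6 (1.54 ± 0.14, adjusted p = 3.9e-07) and from 2.91, 2.34 and 3.78 to 6.05, 5.89 and 6.36 at day 2 of caMEK1 (0.84 ± 0.14, adjusted p = 9.1e-05). Day 2 libraries of both genes lay above all untreated libraries.

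Among mu-class genes, Gstm2 fell throughout and the others on some days or not at all. Gstm2 read 15.1, 17.6 and 17.1 FPKM untreated and 5.87, 4.89 and 6.25 at day 2 of caMEK1 (-1.40 ± 0.19, adjusted p = 6.2e-06), and was lower on every day of both kinases, though at day 7 of caMKK6 (13.5, 6.68 and 15 against 16, 18.8 and 16) the call (-0.56, adjusted p = 0.023) was lost without day 7 library 2 (-0.23, adjusted p = 0.2) or untreated library 2 (-0.49, adjusted p = 0.084). Gstm1 fell at days 2 and 4 of caMEK1, to 8.46, 8.67 and 8.66 FPKM at day 2 from 15.8, 15 and 16.8 (-0.81, adjusted p = 2.3e-06), and was back at 14.1, 15.6 and 14.8 at day 7, not called. With caMKK6 it was called at day 4 (-0.28, adjusted p = 0.033), not under median scaling (-0.17, adjusted p = 0.19) or without untreated library 2 (-0.21, adjusted p = 0.15) or day 4 library 1 (-0.20, adjusted p = 0.16) or 2 (-0.27, adjusted p = 0.079), and at day 2 only with the replicate block (-0.24, adjusted p = 0.046). Gstm5 rose at day 7 of caMKK6 (0.39, adjusted p = 0.0079). The block also added Gstm6 at day 7 of caMEK1 (-0.39, adjusted p = 0.026) and Sult1e1 at day 7 of caMKK6 (0.82, adjusted p = 0.0082).

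Ugt1a7c and Sult4a1, both low, changed differently with the 2 kinases by day 7. Ugt1a7c, the UGT member tested in MEFs, read 0.497, 0.567 and 0.829 FPKM untreated and 3.24, 3.83 and 3.85 at day 7 of caMEK1 (1.51, adjusted p = 1.1e-05), but 0.952, 0.41 and 1.78 at day 7 of caMKK6; the changes differed by 1.35 (adjusted p = 0.0029). Sult4a1, a brain-enriched sulfotransferase of unknown substrate, went from 5.06, 4.14 and 5.38 to 0.519, 0.697 and 2.14 FPKM with caMEK1 (-1.54, adjusted p = 3.8e-07) and from 1.63, 2.03 and 1.68 to 2.92, 2.81 and 3.07 with caMKK6 (0.50, adjusted p = 0.031), a difference of -2.04 (adjusted p = 3.1e-06). These 2 and Gsto1 were the members whose day 7 change differed, 1 higher and 2 lower with caMEK1 (37.8% of genes called, 23.3% higher and 14.5% lower; 61.6% of called genes higher, 44.5% after median scaling, with the same split of members). Sult1e1 rose at day 4 with caMEK1 from 0, 0 and 0.262 FPKM to 1.22, 0.777 and 1.79 (1.04, adjusted p = 0.014). With caMKK6 it rose by 0.92 (adjusted p = 0.035), from 0, 0 and 2 reads to 6, 7 and 48, most of them in library 3. Its day 7 change differed between the kinases by 0.13 (adjusted p = 0.86). Because no untreated library reached 1 FPKM, Sult1e1 passed the filter only through treated libraries, and a fall could hardly have been seen.

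**Figure D4:**
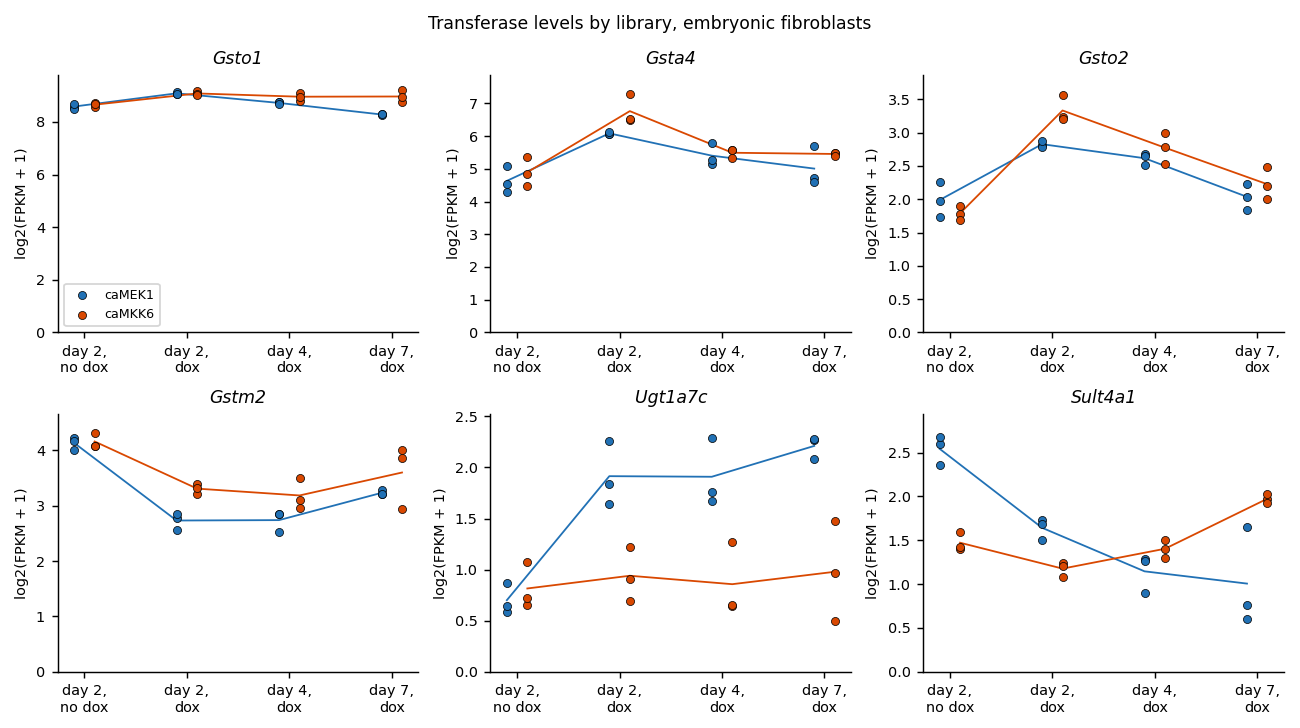
Levels of 6 members, as log2(FPKM + 1), in every MEF library untreated (day 2) and on days 2, 4 and 7 of doxycycline; blue points are caMEK1, orange points caMKK6, and lines join group means. Gsto1, Gsta4 and Gsto2 are highest at day 2, Gstm2 is lowest at days 2 and 4, and Ugt1a7c and Sult4a1 part between the kinases by day 7.

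The genes that supply or surround these enzymes were followed as 7 lists. Of NRF2 pathway genes other than transferases, 12 rose and 2 fell of 20 at day 2 of caMEK1 in MEFs and 15 and 3 with caMKK6, with list medians of 0.41 and 0.56 against -0.01 and -0.06 over all genes. In colon 4 rose of 20 with caMEK1 and 13 with caMKK6 and none fell by limma (medians 0.42 and 1.08 against -0.14 and -0.06). In liver 2 rose and 6 fell of 19 with caMEK1, and 9 and 2 with caMKK6 (medians -0.24 and 0.56 against -0.04 and 0.25). Srxn1, which restores oxidized peroxiredoxins, averaged 72.2 against 6.95 FPKM in caMKK6 liver (2.91 ± 0.37, adjusted p = 3.8e-05), and Gpx2, an epithelial glutathione peroxidase, 556 against 90.4 in caMKK6 colon (2.58 ± 0.35, adjusted p = 9.8e-05).

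These counts are read against the share of all genes called, which was 10.7% higher and 16.3% lower in caMEK1 liver, 28.9% and 9.29% in caMKK6 liver, 9.54% and 12% in caMEK1 colon and 11.1% and 9.7% in caMKK6 colon. For glutathione synthesis and recycling, 3 rose and 6 fell of 18 in caMEK1 liver, and 5 and 1 in caMKK6 liver, where the rises were near the background. In colon 6 rose and 1 fell of 23 with either kinase. Gclc, of the rate-limiting enzyme of glutathione synthesis, averaged 19.9 against 61.5 FPKM in caMEK1 liver, 51.4 against 27.4 in caMEK1 colon and 71 against 27.4 in caMKK6 colon. It thus fell in liver and rose in colon with caMEK1. Mgst1, a microsomal GST outside the symbol rule, averaged 87.6 in caMEK1 and 362 in caMKK6 liver against 1195 FPKM.

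For the donors of glucuronate and sulfate, 3 of 5 UDP-glucuronate genes and 4 of 9 sulfate donor genes fell in caMEK1 liver. Ugdh, which makes UDP-glucuronate, averaged 3.34 against 18.6 FPKM (-2.19 ± 0.60, adjusted p = 0.012), and Papss2, which makes PAPS, 6.49 against 23.9 (-1.93, adjusted p = 0.016). In caMKK6 liver 1 rose and 1 fell, and 2 fell, and in caMEK1 colon 1 rose and 3 fell of 9 sulfate donor genes, Papss2 at 77.1 against 144 FPKM among them. Of 14 conjugate and drug transporters in liver, 2 rose and 8 fell with caMEK1 and 3 and 8 with caMKK6; Slco1b2, a hepatic uptake carrier, averaged 19.5 with caMEK1 against 243 FPKM. Of 18 phase I genes in liver, 1 rose and 9 fell with caMEK1 and 4 and 8 with caMKK6, where the xenobiotic-inducible Cyp3a11 averaged 3435 against 89.9 FPKM (5.13 ± 0.77, adjusted p = 1.8e-04). Of 11 xenobiotic receptors and hepatocyte regulators, 1 fell with caMEK1 and 3 rose with caMKK6, Hnf4a at 291 against 101 FPKM, shares no higher than those of all genes.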

How the data were processed

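Bulk RNA of each library was measured as FPKM, in a table deposited by the authors with 21863 entries: 21859 genes and 4 reporters or transgenes. Per the submitters' processing notes, reads were trimmed with cutadapt 1.12 and aligned with STAR 2 to mm10; the counting tool is not given in the sources used here. GENCODE M21 held 21191 of the gene IDs, and its exon lengths turned FPKM into read numbers; 100% of the values under 1000 reads were whole within 0.02 read.

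Groups came from the labels. limma 3.58.1 (R 4.3.3; lmFit, and eBayes with a trend) was fitted to log2(FPKM + 1), once per tissue over all its groups, to genes that reached 1 FPKM in at least 3 libraries (MEFs) or 2 (liver, colon, untreated). There were 11347, 10371, 11542 and 11968 genes tested with 16, 14, 14 and 12 residual degrees of freedom, and 24 comparisons, all two-sided, with Benjamini-Hochberg adjustment within each. The scripts were tested on simulated data. Members and gene lists were chosen with earlier results of these data known.

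Members named were the 6 of highest mean FPKM per tissue and, per comparison, up to 8 rises and 8 falls among called members whose higher group averaged at least 5 FPKM; any other member could be named with its values, and lists were given as counts with their most abundant called genes. Those outside the rule, such as low genes and pairs of neighbours, were chosen after their values were seen.

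Same-numbered libraries deviated together in MEFs (correlations of 0.11 to 0.80 over 36 pairs, median 0.48; -0.23 for other pairs), as did the colours of 1 animal, by the labels' animal numbers, in liver (0.46 to 0.82, 7 pairs) and colon (0.40 to 0.71, 7 pairs). A fit with the number or animal as a block was therefore made beside each comparison. Other settings were leaving out each library, other control libraries, quantile normalization, median scaling, no filter on low values, and 0.1 as pseudocount. Limma's voom on the recovered reads, caMEK1 liver without animal 3, and 1 fit over both tissues were added after the data were seen.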

Additional observations from a re-analysis of the deposited data

Results flagged for a closer look

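The results in this section are differences between kinases or tissues for which the difference itself passed limma's test (log2 scale, Benjamini-Hochberg adjusted p below 0.05). In MEFs the day 7 change of Gsto1 was -0.61, caMEK1 minus caMKK6.

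In liver mCherry cells, Sult1e1 (4.58), Sult1b1 (1.47), Sult1d1 (1.23) and Ugt1a5 (1.23) were higher in caMEK1 than in caMKK6. Gstm3 (-9.01), Gstm1 (-5.29), Ugt2b5 (-2.50), Ugt2b34 (-2.44), Ugt1a9 (-2.40), Ugt2b35 (-2.32), Gstm6 (-2.28) and Gstp1 (-2.25) were lower. Without caMKK6 mCherry library 2 the calls of Ugt2b34 (-1.48, adjusted p = 0.12), Ugt1a9 (-1.64, adjusted p = 0.26), Ugt2b35 (-1.06, adjusted p = 0.26), Gstm6 (-0.89, adjusted p = 0.22) and Gstp1 (-1.52, adjusted p = 0.11) were lost. That of Ugt1a5 was lost without caMKK6 library 1 (1.03, adjusted p = 0.14) or caMEK1 library 1 (1.26, adjusted p = 0.054) or 2 (1.08, adjusted p = 0.064). Ugt1a9 was also not called without caMEK1 library 1 (-2.05, adjusted p = 0.12) or 2 (-1.93, adjusted p = 0.099), without the filter (adjusted p = 0.057), or after median scaling (-2.05, adjusted p = 0.11) or quantile normalization (-2.11, adjusted p = 0.1), and Ugt2b35 after median scaling (-1.90, adjusted p = 0.057).

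In colon mCherry cells, Ugt1a1 (2.18), Gsta1 (1.91), Gstp3 (1.72) and Sult2b1 (1.24) were higher in caMEK1 than in caMKK6. Gstm3 (-2.27), Ugt2b35 (-2.01), Gsta3 (-1.65), Gstm1 (-1.44), Gstm2 (-1.03), Gstm6 (-0.95), Gstk1 (-0.93) and Gstt2 (-0.86) were lower. Without caMEK1 mCherry library 2 the calls of Gsta3 (-1.43, adjusted p = 0.072), Gstm1 (-1.08, adjusted p = 0.08), Gstm2 (-0.65, adjusted p = 0.082), Gstm6 (-0.80, adjusted p = 0.077), Gstk1 (-0.43, adjusted p = 0.37) and Gstt2 (-0.52, adjusted p = 0.26) were lost, and that of Gstk1 also without caMKK6 library 2 (-0.70, adjusted p = 0.067). Ugt1a1 lost its call without caMEK1 library 1 (1.65, adjusted p = 0.13), and Sult2b1 without caMEK1 library 1 (1.37, adjusted p = 0.075) or 2 (1.11, adjusted p = 0.18) or caMKK6 library 2 (1.11, adjusted p = 0.075) or 3 (adjusted p = 0.091).

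Between tissues, the mCherry change of Gsta4 in liver minus that in colon was -4.80 with caMEK1 and -4.43 with caMKK6. With caMEK1 it was -2.98 for Gstp1 and 4.04 for Sult1a1. These 4 are the differences in which the gene was called in opposite directions in the 2 tissues. Some of those calls within a tissue were lost under other settings. For Sult1a1 in caMEK1 liver (1.27) the adjusted p rose to between 0.067 and 0.33, and for Gstp1 with caMEK1 to between 0.071 and 0.12 in liver and between 0.067 and 0.56 in colon. For Gsta4 in caMKK6 liver it rose to between 0.075 and 0.15. The differences themselves were not refitted under these settings.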

How the results depend on the processing

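Of the called changes of named members, 1146 of 1204 stayed called over the settings other than leaving out a library, and 982 of 1136 without 1 library; 22 and 16 others became called. These totals count each change once per setting, so that 1 change can enter many times. Counts of called members moved as follows, and the cause was not tested. Without the filter, 11 members in place of 7 were called at day 7 of caMEK1 in MEFs, 5 in place of 3 for the day 7 difference between kinases, 1 in place of 2 for liver caMKK6 mCherry against GFP, and 4 in place of 8 for colon caMKK6 GFP. Limma's voom on recovered reads, chosen after the data were seen, gave 1 and 4 for the last pair. With the replicate block the counts were 12 in place of 2 for liver caMEK1 mCherry against GFP, 14 in place of 2 for caMKK6, and 23 in place of 13 for colon caMKK6. Without the share of all genes called with the block, these larger counts are not read as particular to the members. The replicate block also added calls of Gstm4 (-0.25) and Gstm6 (-0.46) at day 4 and Gstt3 (0.25) at day 7 of caMKK6 in MEFs and of Gstm5 (0.66) in liver caMEK1 mCherry cells. Beyond these and the values given beside the results, it changed no other call of a member.

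Leaving out 1 library gave 4 to 7 members at day 7 of caMKK6 in MEFs. In liver the ranges were 10 to 21 (caMKK6 mCherry), 6 to 24 (caMKK6 GFP), 1 to 3 and 2 to 7 (mCherry against GFP, caMEK1 and caMKK6) and 11 to 22 (caMEK1 against caMKK6). In colon they were 12 to 17 (caMEK1 mCherry), 1 to 4 and 1 to 5 (caMEK1 and caMKK6 GFP), 0 to 2 (control GFP), 6 to 17 (caMEK1 mCherry against GFP) and 5 to 12 (caMEK1 against caMKK6). Where 1 library was left in a group, it was assumed to vary like the other groups.

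Changes of sign were seen only in values that were not called: 13 under other settings and 36 without 1 library, again counted once per setting. Median scaling gave 0.04 for Gstp1 and 0.03 for Gstm1 at day 7 of caMKK6 in MEFs, -0.16 for Gstp1 in liver caMKK6 mCherry cells, -0.05 for Sult1a1 in liver caMKK6 mCherry against GFP, and 0.14 for Sult1a1 in colon control GFP. Quantile normalization gave 0.01 for Sult1a1 in control GFP of liver and colon, -0.29 for Gsto1 in colon caMEK1 mCherry and -0.14 for Ugt2b34 in colon caMKK6 GFP. Other controls gave -0.88 for Gstp1 in liver caMKK6 mCherry, -0.05 for Sult1a1 in liver caMKK6 GFP, 0.33 for Sult1d1 in colon caMEK1 mCherry and -0.38 for Ugt2b34 in colon caMKK6 GFP.

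Without 1 library, changes that crossed 0 ranged in MEFs from -0.53 to 0.04 (Gsta4) and -0.19 to 0.03 (Gstm1) for the day 7 difference, and from -0.11 to 0.10 (Gstm1) and -0.16 to 0.09 (Gstp1) at day 7 of caMKK6. In liver they ranged for caMKK6 from -0.48 to 0.99 (Gstp1, mCherry), -1.53 to 0.16 (Gstm1, GFP) and -0.43 to 1.03 (Sult1a1, GFP). For liver control GFP they were -0.23 to 0.12 (Sult1a1) and -0.18 to 0.06 (Ugt2b1). For liver mCherry against GFP they were -0.42 to 0.04 (Sult1a1, caMEK1), and with caMKK6 -0.69 to 1.19 (Sult1a1), -0.40 to 1.53 (Ugt2b1), -0.31 to 1.30 (Ugt2b36) and -0.02 to 1.94 (Ugt2b5). Sult1a1 in caMEK1 against caMKK6 ranged from -0.65 to 1.23 in liver and -0.77 to 0.89 in colon, and Gsto1 in colon from -0.02 to 0.30. In colon caMEK1 mCherry cells they were -0.14 to 0.18 (Gsto1) and -0.47 to 0.00 (Sult1d1). For colon caMKK6 mCherry against GFP they were -0.07 to 0.41 (Gsta4) and -0.07 to 0.52 (Sult1d1), and for caMKK6 GFP -0.04 to 0.10 (Ugt2b34). For colon control GFP they were -0.65 to 0.25 (Gstm1), -0.22 to 0.24 (Sult1a1) and -0.05 to 0.34 (Ugt2b34).

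Levels below about 1 FPKM rest on few reads, so that changes of members such as Ugt2b36 in colon are limited by depth.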
